A study of Drosophila melanogaster with 4 samples.

Results

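The Wnt gene cluster of Drosophila melanogaster lies on the left arm of chromosome 2 (2L) and holds Wnt4, wingless (wg), Wnt6 and Wnt10 side by side. The cluster was taken as the stretch of 2L from 7240000 to 7380000 on FlyBase release 5, and its members were the peaks of histone H3 trimethylated at lysine 4 (H3K4me3) that overlap it. It held 2 of the 1191 peaks on 2L and of the 7425 peaks in the whole list. The rule for the stretch names only positions, but it was set with earlier results of these data known. The list came from chromatin immunoprecipitation and sequencing (ChIP-seq) of whole embryos aged 8 to 16 h, with 2 ChIP libraries made with a rabbit polyclonal antibody to H3K4me3 and 2 libraries of input DNA. Both groups came from the strain named Y cn bw sp, fixed for 15 min with formaldehyde at 1.8%. The labelled genotype, shared by both groups, carries y[1] and oc[R3.2], then Gr22b[1] and Gr22d[1] with cn[1], next CG33964[R4.2] with bw[1] and sp[1], and lastly LysC[1], lab[R4.2] and MstProx[1] with GstD5[1] and Rh6[1].

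Wnt proteins are secreted, lipid-modified signals that bind Frizzled receptors, and in the canonical pathway they stabilise Armadillo, the fly beta-catenin, so that target genes are transcribed. In the embryo wg is a segment polarity gene, expressed in a narrow stripe of cells in each segment and later in parts of the gut, nervous system and disc primordia. H3K4me3 marks nucleosomes around the starts of active genes. Fewer marked cells and less mark per cell cannot be told apart in whole embryos.

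Each peak carries the peak caller's own score, given by the authors, whose scale is not stated in the sources used here. It was used only to order peaks within this list. The list names no library, so no value below has a replicate error, the depth of the libraries is unknown, and no test was made. A place without a peak was not called at the authors' threshold, which does not show that the mark is absent. Peaks in the file were numbered from 1 to 7425 without a break.

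Of the 4 Wnt genes only Wnt4 had H3K4me3 peaks. Both peaks of the cluster lay inside this gene, at the end with the higher position. The first covered 2L 7275373 to 7276153, with a width of 781 bp and a score of 15.76. The second covered 2L 7276333 to 7276977, with a width of 645 bp and a score of 33.97. They were 179 bp apart and together spanned 1605 bp. The gene table used for names gives no strand, so the ends of a gene are called lower and higher by position, and a start cannot be told from an end. The edge of the second peak was 194 bp inside the higher end of Wnt4 and that of the first was 1018 bp inside it. The lower end of Wnt4 was 19.95 kb from the nearest peak.

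**Figure D1:**
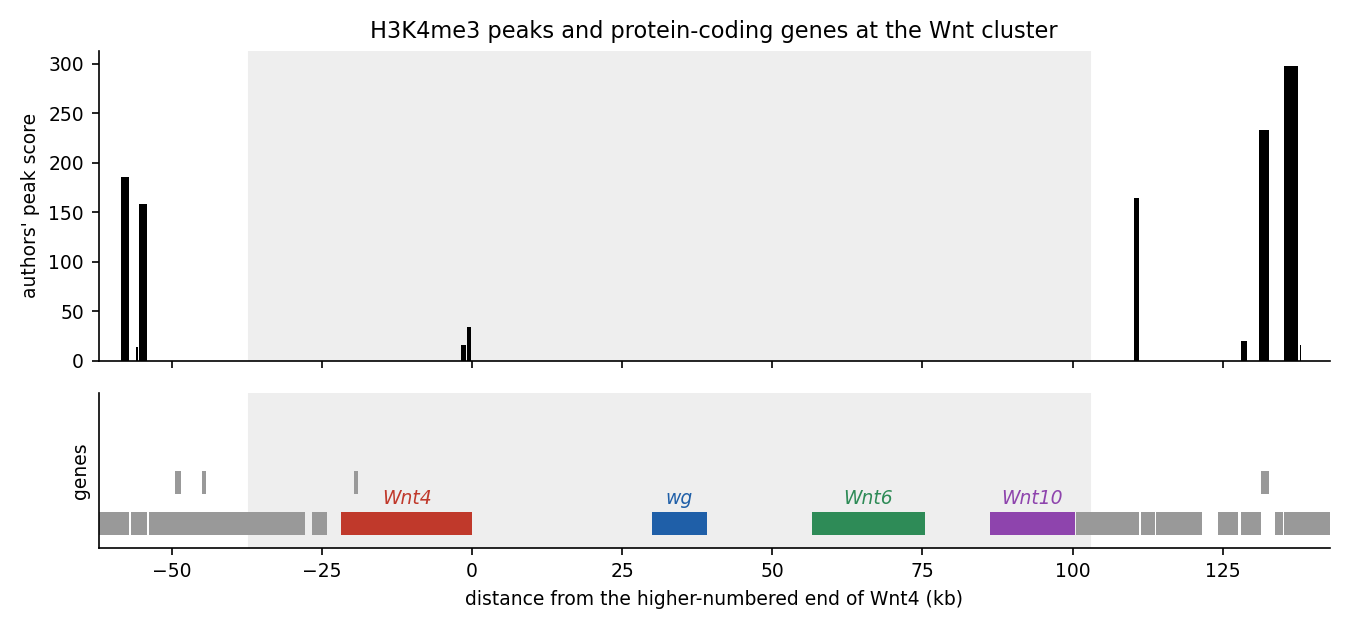
H3K4me3 peaks (black bars, upper panel, height is the authors' peak score and width is to scale) and protein-coding genes (lower panel) around the Wnt cluster, with position in kb from the higher-numbered end of Wnt4 and the 140 kb window shaded. The 2 peaks in the window, with scores of 15.76 and 33.97, lie inside Wnt4, and no peak lies over wg, Wnt6 or Wnt10.

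Both Wnt4 peaks were in the lower part of the 2L score range. Of the 2L peaks, 21.5% scored as low as the first or lower and 33.2% as low as the second or lower. The median score was 126.71 on 2L, with quartiles of 18.5 and 251.08, and the median width was 1300 bp. The 224 peaks of 2L that were 500 to 999 bp wide had a median score of 35.4 with quartiles of 19.9 and 74.1, so the second Wnt4 peak lay near the median for its width and the first below the lower quartile.

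**Figure D2:**
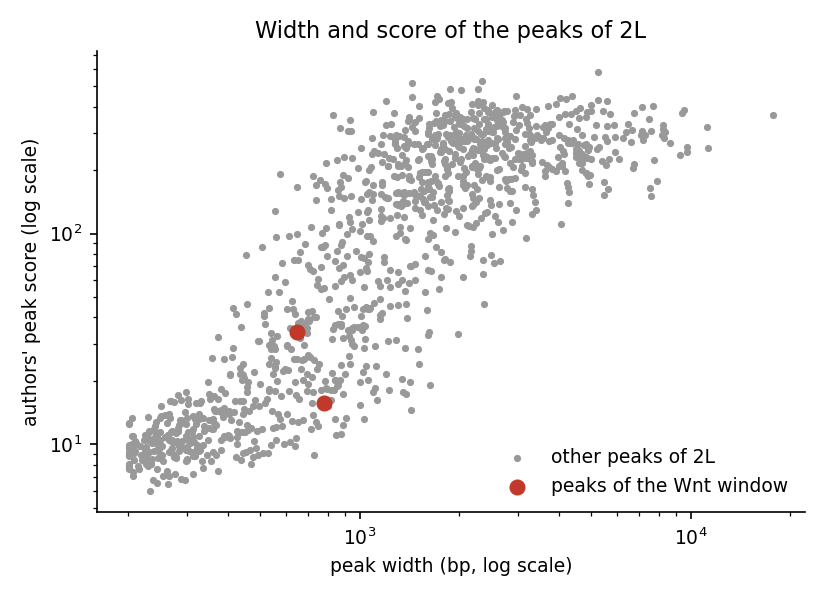
Width (bp, log scale) against the authors' score (log scale) of every peak of 2L, with the 2 peaks of the Wnt cluster in red. With widths of 781 and 645 bp and scores of 15.76 and 33.97 they lie within the cloud of the other 2L peaks of that width.

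The Wnt4 pair stood far from any high-scoring peak. The nearest peak with a score at or above the median of the whole list, 98.41, was 52248 bp from the first Wnt4 peak. It was the left neighbour, at 2L 7221666 to 7223125, with a score of 157.76. The 396 peaks of 2L that scored 33.97 or less were commonly beside a high-scoring peak, at a median distance of 1037 bp, and 194 of them (49.0%) were under 1 kb from one. Only 25 of the 396 (6.31%), with the Wnt4 pair among them, were as far from one as the nearer Wnt4 peak or farther.

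No H3K4me3 peak was called over wg, which encodes the main canonical Wnt ligand of the fly, nor over Wnt6 or Wnt10. The stretch from 2L 7276978 to 7387459, 110482 bp in length, had no peak. It held 4 protein-coding genes in full, namely wg, Wnt6, Wnt10 and ninaC, a myosin of photoreceptors. The peak that ended it, at 2L 7387460 to 7388256, scored 164.21 and lay at the higher end of CG5149, next to gudu. On the other side of the Wnt4 pair, 2L 7223126 to 7275372 had no peak over 52247 bp. That stretch held Ndae1, an anion exchanger gene, and CG43799, CG43800, CG13786 and CG31909 in full. Together 98.98% of the 140 kb window was outside peaks, since peaks covered 1426 bp of it, or 1.02%.

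Such stretches were long for 2L but not rare. The median distance between neighbouring peaks was 1187 bp, and 48 of the 1190 gaps on the arm (4.03%) were as long as the one over wg, Wnt6 and Wnt10 or longer. By length these 48 gaps took up 8.57 Mb, or 37.3% of the span of the 2L peaks. They held 491 protein-coding genes in full, or 18.5% of those on the arm. A gap as long held between 1 and 31 genes with a median of 7.5, so the 4 genes here were fewer than in most of them. The gap to the left of the pair was matched or exceeded by 119 gaps (10.0%).

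The distance from the nearer end of each Wnt gene to a peak ran from 0.194 kb for Wnt4 to 34.92 kb for Wnt6. For wg, a gene of 9107 bp, the lower end was 30.18 kb and the higher end 39.29 kb from a peak. For Wnt6, which spans 18.83 kb, the distances were 53.75 kb at the lower and 34.92 kb at the higher end. For Wnt10, which spans 14.15 kb, they were 24.08 kb and 9.93 kb. The order by the nearer end was thus Wnt4, Wnt10, wg and Wnt6, and wg and Wnt6 were close to each other. The gaps between the genes were 29.99 kb from Wnt4 to wg, 17.45 kb from wg to Wnt6 and 10.84 kb from Wnt6 to Wnt10, and none of these held a peak.

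Against all 2657 protein-coding genes of 2L, wg and Wnt6 were farther from a peak than the upper quartile, Wnt10 was just below it and Wnt4 was near the median. The median distance from the nearer gene end to a peak was 238 bp and the upper quartile 11745 bp. The count of 2L genes as far from a peak as wg or farther was 348 (13.1%), and for Wnt6 it was 302 (11.4%). Wnt10 was matched or exceeded by 716 (26.9%) and Wnt4, at 194 bp, by 1354 (51.0%).

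**Figure D3:**
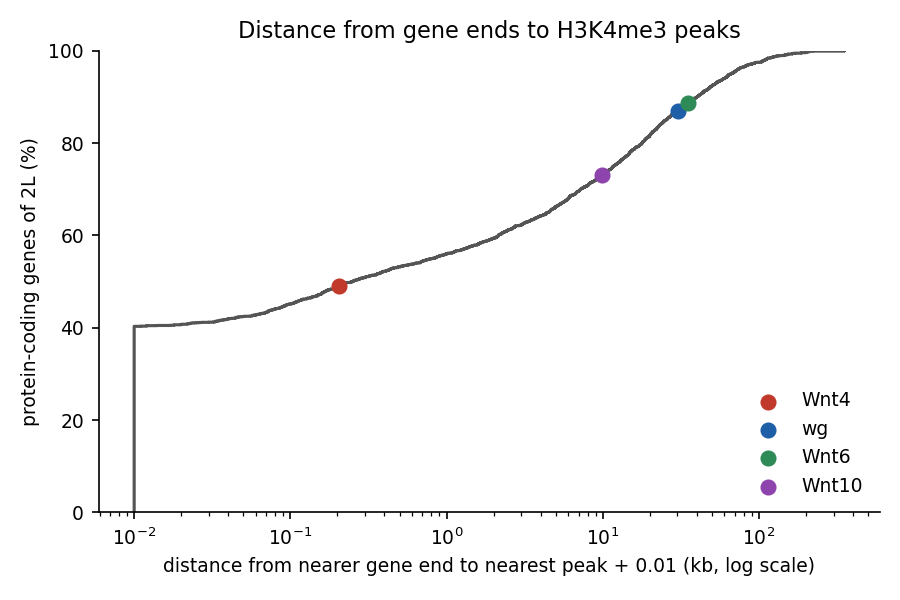
Cumulative share of the 2657 protein-coding genes of 2L (%) by distance from the nearer gene end to the nearest H3K4me3 peak, in kb with 0.01 added on a log scale. Wnt4 lies near the middle at 0.194 kb, and Wnt10, wg and Wnt6 lie at 9.93, 30.18 and 34.92 kb.

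With an end inside a peak as the criterion, 0 of the 4 Wnt genes were counted, where 40.3% of 2L protein-coding genes were. With an end within 500 bp of a peak, 1 of 4 was counted, namely Wnt4, against 53.3%, and within 1000 bp again 1 of 4 against 56.0%. A peak lay within the body of 1 of 4, against 50.4%. With 4 genes in 1 stretch, which are neighbours and not independent, these counts are a description. The Wnt genes are long for the arm, where the median gene spans 1986 bp. Among the 359 protein-coding genes of 2L of at least 9107 bp, the length of wg, 53.2% had an end within 500 bp of a peak and 57.1% had a peak in the gene. Of these long genes, 35 (9.75%) were as far from a peak as wg or farther.

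Among genes with an end within 500 bp of a peak, Wnt4 was at the low end by score. The highest score at a gene was taken over peaks in the gene or up to 500 bp beyond it. It had a median of 252.65 over the 1417 such genes of 2L, and 65 of them (4.59%), Wnt4 included, had 33.97 or less. In this count a peak shared by several genes counts for each of them. Counted by peak, 33.2% of those on 2L scored 33.97 or less. No peak lay at wg, so the likeness to a wg peak could not be ranked and the second Wnt4 peak was used in its place, a choice made after its values were seen. By the sum of rank differences in score and width over the 1191 peaks of 2L, the most similar peaks at gene ends were those of Thor, CG7420, cutlet, Ugt36A1, IP3K1 and obst-B, the last 2 tied. The Thor peak scored 34.06 over 660 bp, and the IP3K1 peak scored 32.7 over 562 bp. Thor encodes the translational repressor 4E-BP.

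Set beside other stretches of 2L of equal size, the Wnt window ranked lower by the scores of its peaks than by their number. The arm gave 163 windows of 140 kb laid end to end from the Wnt window. Their number of peaks ran from 0 to 44 with a median of 6, and 45 of them (27.6%) held 2 or fewer, the Wnt window included. Of those, 15 windows held no peak, 20 held 1 and 10 held 2. Covered length had a median of 8919 bp, and 32 windows (19.6%) had 1426 bp or less. The median score of the peaks in the Wnt window was 24.9 and their median width 713 bp. Of the 148 windows with a peak, 13 (8.78%) had a median score as low and 17 (11.5%) a median width as low. Its highest score, 33.97, was matched or undercut by 7 of the 148 windows (4.73%), counting itself, where the median highest score was 318.0. Each of these 7 windows held 1 or 2 peaks, so this rank is not separate from the number of peaks. The 15 windows without a peak count in the rank by number but not in those by score. The single gap between its 2 peaks, 179 bp, was among the 5 shortest median gaps of 128 windows with at least 2 peaks. That rank sets 1 gap against medians of several. Among the 1190 single gaps of the arm, 1005 (84.5%) were as long or longer.

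The Wnt window was also poor in genes, which moves with the number of peaks. It overlapped 8 protein-coding genes, namely Ndae1, CG13786, Wnt4, CG31909, wg, Wnt6, Wnt10 and ninaC, against a median of 15 over all windows. Across the 163 windows the Spearman correlation of genes with peaks was 0.730, a description over neighbouring windows of 1 library set. Among the 39 windows with 6 to 10 genes the median was 2 peaks, with a range from 0 to 10, so the number in the Wnt window was the usual one for its genes. The highest score was toward the low end. Of the 32 such windows with a peak, 4 had a highest score of 33.97 or less, the Wnt window included, and the median was 193.0. These 4 windows held 1 or 2 peaks each, and the 32 were not matched on number of peaks. The windows on either side held more peaks, with 9 and a highest score of 267.85 to the left and 8 and 337.95 to the right. The left window overlapped 10 protein-coding genes and its median score of 17.01 was below the 24.9 of the Wnt window. The right window overlapped 20 genes and had a median score of 131.82.

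**Figure D4:**
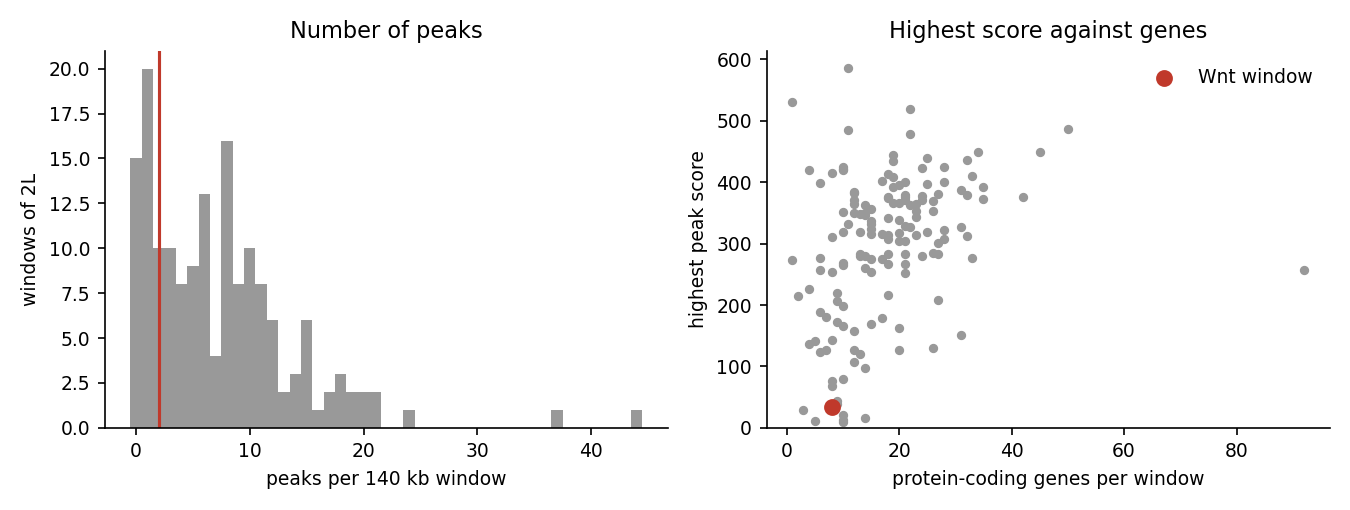
Left, number of H3K4me3 peaks in the 163 end-to-end windows of 140 kb on 2L, with the Wnt window at the red line, 2 peaks. Right, highest peak score against the number of protein-coding genes in the 148 windows with a peak. The Wnt window, with 8 genes and a highest score of 33.97, lies near the bottom.

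Receptors and other genes of a Wnt signalling list had peaks at their ends on the same arm. Of a list of 48 genes of Wnt signalling and related receptors and cofactors, 5 lay on 2L, the 4 cluster genes not counted, and all 5 had an end within 500 bp of a peak, against 53.3% of 2L genes. Ror, a receptor tyrosine kinase with a Frizzled-like domain, had a highest score of 222.72. The Ryk family receptors drl, a receptor for Wnt5, and dnt had 102.24 and 97.04. smo, the Frizzled-related transducer of the Hedgehog signal, had 255.64. ebi, which encodes a corepressor subunit, had 307.01. Most of these peaks also counted for neighbouring genes. The smo peak was 11301 bp wide, counted for 7 other protein-coding genes and covered CG11555 and CG17078 in full. The Ror peak of 7730 bp counted for 4 others and covered CG31717 and CG5676 in full, the ebi peak of 7104 bp counted for 3 others, RpLP1 among them, and the drl peak for 1. The dnt peak counted for no other gene. All 5 were above the 33.97 of Wnt4, and 4 of them reached the median score of the peak list, against 47.8% of 2L genes and 0 of 4 in the Wnt cluster. Genes of the list on other arms were not used, since shared positions of the releases were stated only for this part of 2L.

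Among other patterning genes of 2L, low-scoring peaks were more frequent than over the arm, while the share without a peak was near that of all genes. Of 34 patterning and signalling genes on the arm, 18 (52.9%) had an end within 500 bp of a peak, near the 53.3% of all genes, while 9 (26.5%) reached a score of 98.41 against 47.8% of all genes. The 9 included Mad, a transducer of the Dpp signal, with 345.68, the EGF-like ligand spi with 331.35, and the Dpp receptor tkv with 223.98. The peak of 345.68 lay outside Mad, within 500 bp of it, and covered 876 bp of the 896 bp of its neighbour ND-B14.5B. Also among the 9 was smo, which is in the Wnt signalling list as well. A peak scoring 33.97 or less was the highest at 8 of the 34 (23.5%), against 3.24% of all 2L genes. These were dpp, the BMP ligand, with 25.48 in its body, the slp1 and slp2 forkhead genes with 8.59 and 16.05, mid with 11.6, sna with 16.18, wor with 17.35, salm with 29.75 and nub with 28.67. No peak was called in or within 500 bp of 14 of the 34 (41.2%), among them odd, prd, gcm, dac and cad, where 45.1% of all genes had none. Of the 34, 3 were as far from a peak as wg or farther, where 13.1% of all 2L genes were. These were salr at 70.75 kb, H15 at 45.2 kb and sob at 38.48 kb.

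Most ribosomal protein genes had high-scoring peaks and most chemosensory receptor genes had none. Of 19 genes with ribosomal protein symbols on 2L, 17 reached 98.41, against 47.8% of all 2L genes, with scores from 284.39 to 448.69. The exceptions were RpS28-like with 13.16 and RpL5, which lies close to the centromere, where release positions were not compared, and was listed 58.35 kb from a peak. Of 31 odorant, gustatory and ionotropic receptor genes, 3 had an end within 500 bp of a peak, against 53.3% of all genes, and 28 had no peak in the gene or within 500 bp, against 45.1%. Their median distance to a peak was 21.5 kb, against 20.1 kb for the 4 Wnt genes and 0.238 kb for all genes of 2L. The peak counted for Ir31a, with 429.98, was the one counted for RpS27A, so peaks near a gene may belong to its neighbour.

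**Figure D5:**
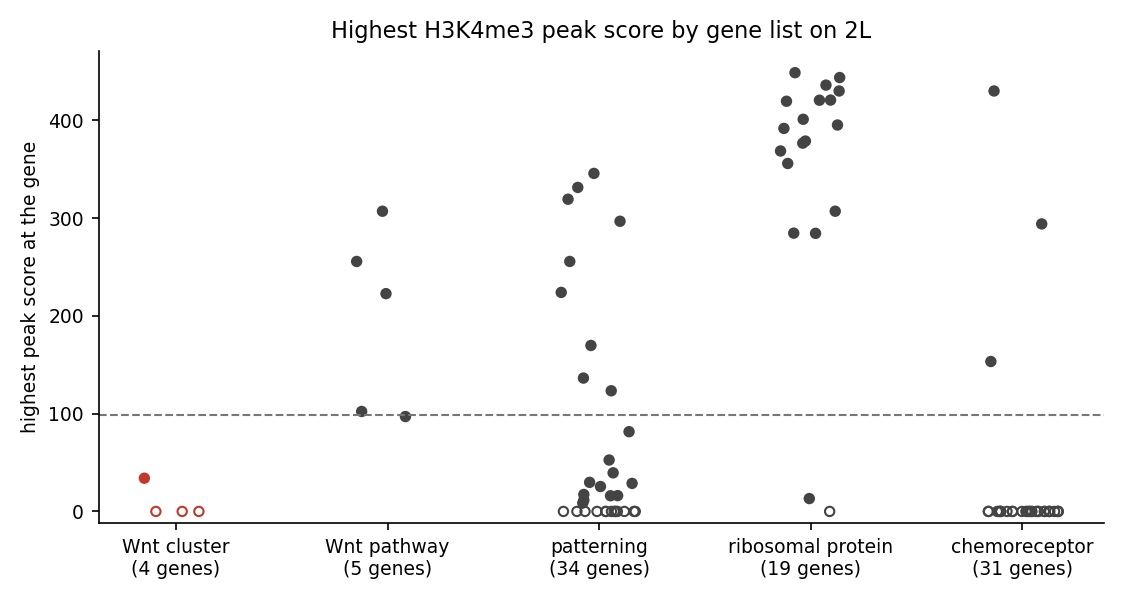
Highest H3K4me3 peak score in each gene or within 500 bp of it, for 5 gene lists on 2L, with open circles at 0 for genes without a peak there and the list median of 98.41 dashed. Among the Wnt cluster genes only Wnt4 has a peak, at 33.97. The 5 genes shown as Wnt pathway are those of the list of Wnt signalling genes and related receptors and cofactors, and lie between 97.04 and 307.01. Of these, smo is plotted in the patterning list as well.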

How the data were processed

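The series holds 2 H3K4me3 ChIP and 2 input libraries of fly embryos. The values used were those of 1 deposited peak list with a start, an end and the authors' score per peak. The build is FlyBase release 5 and the caller MACS, per the file headers. MACS2, BWA and CASAVA (versions 1.7.0.2 and 1.7.0.3) are listed with BDGP5 in the submitters' processing notes. How libraries were combined, and the depth of each, are not given in the sources used here.

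Gene positions were those of the RefSeq table of the Release 6 assembly, used on 2L and printed as distances. Those of 3R were used only in the check below. The rule that defined the window states that both releases share positions in this part of 2L. Shares over all genes of 2L use the same table beyond that part, where positions may differ, as near the centromere. As a check, the share of genes with an end within 500 bp of a peak was highest with no shift among shifts of 1 to 20 kb either way. It was 62.5% of 136 genes in the 1 Mb to the left of the window (at most 58.1% when shifted) and 53.5% of 144 genes to the right (at most 51.4%). Over the whole of 2L it was 53.5% of 2651 genes (at most 50.1%). Unshifted 3R gave 17.5%. Shifts under 1 kb cannot be seen this way, so the 194 bp given for Wnt4 rests on the shared positions. The planned count of gene starts used both gene ends, as the table gives no strand.

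Windows were tiled within the span of the 2L peaks. Named genes were those of the window, its neighbours and fixed lists. The members and lists were chosen with earlier results of these data known, and the score limit of 98.41 and the comparisons by gene length and gene number were added after values were seen. Python 3.11.15, numpy 2.4.6, pandas 2.3.3, scipy 1.17.1 and matplotlib 3.10.9 were used, and the functions were tested on simulated data.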

Additional observations from a re-analysis of the deposited data

How the results depend on the processing

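No paired analysis was possible because the list has no column for a replicate, which also prevents leaving out a library. Ranks are the percentage of 2L windows with a value as low as that of the Wnt window or lower. Of 28 alternatives, 20 kept their result, with ranks inside the exact 95% interval of the reported rank or the same gene count, and 8 moved. That interval treats windows as independent, which neighbouring windows of 1 arm are not. It served only as a tolerance and does not measure the error of a rank. Without the lowest 25% of peaks by score, the first Wnt4 peak was lost and the rank was 13.5% for covered length (19.6% as reported), 2.08% for median score (8.78%) and 2.08% for median width (11.5%). Without the lowest 50%, no peak was left in the window and the rank by number of peaks was 17.2% (27.6%). The rank by covered length, then 0 bp, was also 17.2% and counted as kept only because it was inside its own interval. Merging peaks closer than 500 or 1000 bp joined the Wnt4 pair into 1 peak of 1605 bp and moved the rank by median width to 39.9% and 35.1%. The number of Wnt genes with an end at a peak was 0 for ends inside a peak and 1 within 500 bp or within 1000 bp. Removing low-scoring peaks could not change the count of 0, so those alternatives among the 20 were fixed in advance. Score and width without the lowest 50%, and the gap whenever fewer than 2 peaks were left, gave no value. Tiling from position 1 of the arm or moving windows in steps of 10 kb changed no rank past its interval. The unknown depth limits what a missing peak can show.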
